A study of Mus musculus with 2 samples.

Results

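Secreted Wnt inhibitors and R-spondins were followed across the cell classes of newborn mouse skin. The 10 genes were Sfrp1, Sfrp2, Frzb, Wif1, Dkk2, Dkk3, Sostdc1, Notum, Rspo2 and Rspo3, taken by symbol from the 32285 genes of the count matrices, and all 10 had unique molecular identifiers (UMIs, each 1 captured RNA molecule) in both libraries. The study prepared 1 control library, of genotype Wildtype, and 1 library of genotype miR-200b induced, from dorsal skin at postnatal day 3. Both carried the treatment label Dox, so the control also received it. The labels name no promoter, inducible allele, strain or number of animals, and the level of the microRNA itself was not measured by this assay of polyadenylated RNA. Epidermis and dermis were dissociated separately, and their cells were mixed at 30 parts to 70 before capture, so shares of cell types do not give those of the tissue; 82.5% of the kept control cells and 84.0% of the kept induced cells were epithelial. With 1 library per group there were no replicates and no test, and every difference below is one between these libraries. Intervals are 95% intervals that cover counting error only.

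Wnt proteins signal by binding a Frizzled receptor together with Lrp5 or Lrp6. Secreted inhibitors act outside the cell: Sfrp proteins, Frzb and Wif1 bind the Wnt ligand, Dkk2 and Sostdc1 bind the Lrp co-receptor, and Notum removes the lipid that Wnt proteins need for receptor binding. R-spondins act the other way. They bind Lgr receptors and take away the ligases Znrf3 and Rnf43, which otherwise clear Frizzled from the surface. In skin, the dermal papilla at the base of the hair follicle, the dermal fibroblasts and the follicle epithelium all secrete such factors, and hair growth is known to respond to their balance.

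The microRNA named in the genotype is shown because its seed, bases 2 to 8, defines the match that was looked for in the 10 genes. Its mature sequence in RefSeq (GRCm38.p6, chr4:156055685-156055706, minus strand) is printed with the seed in capitals, 5′ to 3′.
miR-200b-3p: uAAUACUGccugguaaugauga
The longest annotated 3′ UTR of each gene (GENCODE vM21, GRCm38) was searched on its own strand for the complement of that seed, CAGTATT. A match was found in 2 of the 10 genes, Wif1 and Dkk2, 1 in each. Over all genes with an annotated 3′ UTR the share was 13.3% (2782 of 20869). The stretches around the matches, with the match in capitals, lie at chr10:121100300-121100306 (plus strand, base 421 of a UTR of 771 bases) and chr3:132178659-132178665 (plus strand, base 539 of 2184).
Wif1: gcgtttaagctaCAGTATTtccaattttat
Dkk2: ggaaaaggcagtCAGTATTttccaaatcac
No match to CAGTATT was present in the annotated 3′ UTRs of the other 8 genes. The related seed of miR-200a-3p, whose match is CAGTGTT, occurred once each in Frzb and Rspo3, against 17.2% of all genes (3593 of 20869). A match is a description of the sequence and was not tested as a site.

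The depth was 100409201 UMIs in 9072 barcodes for the control and 119705137 UMIs in 9114 barcodes for the induced library. Filters and doublet removal left 4816 control cells (median 14612.5 UMIs) and 4890 induced cells (median 17918.5 UMIs). The libraries shared 74 barcode sequences, 10 of them among cells that passed the filter. Cell classes were rebuilt from marker genes, and each name means "like". Of 35 epithelial clusters, 24 were almost purely of 1 library (95% or more of the cells), as were 6 of 18 non-epithelial clusters. In outer root sheath, basal and spinous epidermis and dermal sheath, different clusters held most of the class in each library, and in these the cluster, the library and the state of the cells cannot be told apart. Melanocytes also differed, with cluster N8 holding 42 of 80 control cells and N0 holding 170 of 238 induced cells, but both clusters had cells of both libraries. For the main results, values over all epithelial or all non-epithelial cells or in clusters present in both libraries are given beside those of a class. The make-up of both compartments also differed. Epithelial cells included 156 control and 3 induced sebocytes, 332 and 12 sebaceous duct or progenitor cells, 472 and 1397 basal cells and 9 and 136 granular cells. Over all non-epithelial cells the summed levels of marker lists were 43861 and 13738 CPM for fibroblasts, 1566 and 8668 CPM for melanocytes, 508 and 3588 CPM for the adipocyte lineage and 582 and 2848 CPM for macrophages or dendritic cells. In a sum over cells, fewer expressing cells and less RNA per cell cannot be told apart.

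The class of highest level was taken for each gene from the mean of both libraries, among the 11 classes with at least 20 cells in each library. Levels are given as CPM, the UMIs of a gene scaled to the summed UMIs of all genes in the class. By that mean Frzb, Wif1, Notum, Rspo2 and Rspo3 were highest in dermal papilla cells (for Notum with intervals that overlap those of hair matrix in both libraries, and for induced Wif1 those of dermal sheath), Sfrp2 in dermal sheath, Dkk2 in fibroblasts, Dkk3 in melanocytes, Sfrp1 in outer root sheath and Sostdc1 in upper follicle cells. By library the order could differ. Among these classes in the induced library, Sfrp1 was highest in dermal papilla cells, at 164 CPM (114 to 230, with 84.7 CPM in the control). Sfrp2 was highest in fibroblasts in that library. Schwann cells and unnamed clusters stood outside this order. For Sfrp1, Schwann cells and cluster E8 had higher levels in both libraries, as given below. The dermal papilla class was 1 cluster of 40 control and 83 induced cells. All 16 of its markers were detected in both libraries, with summed levels of 6827 and 7028 CPM, and Corin, a dermal papilla protease, was at 387 and 440 CPM. Its cells were shallow, with medians of 6009.5 and 1766 UMIs. The 53 keratin genes summed to 880 CPM in the control and 2939 CPM in the induced dermal papilla cells, and the part of epithelial RNA in the values of that class was not tested.

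**Figure D1:**
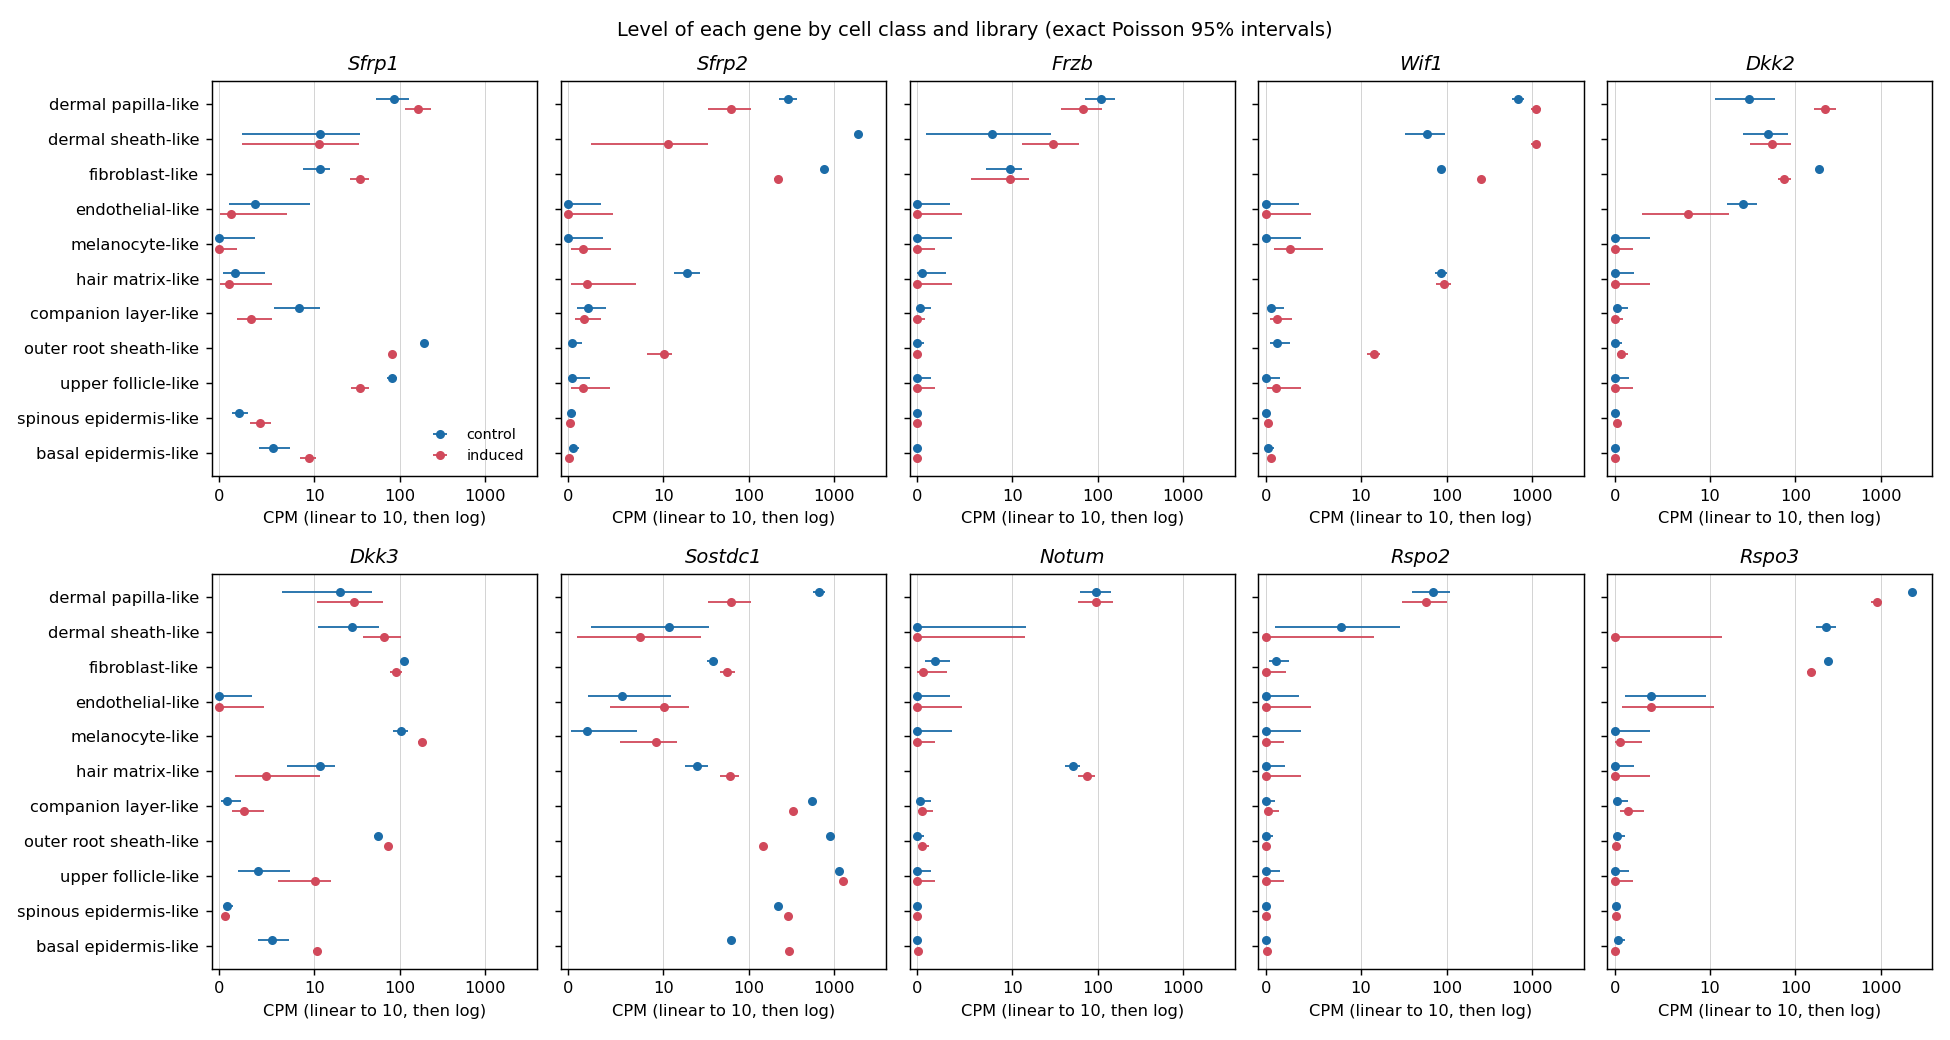
Level of each of the 10 genes (CPM, linear to 10 and logarithmic above) in 11 cell classes, with the control library in blue and the induced library in red; bars are exact Poisson 95% intervals. Rspo3 in dermal papilla cells lies at 2292 and 899 CPM, Sfrp2 in fibroblasts at 768 and 217 CPM, and Sostdc1 extends over the epithelial classes.

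In their class of highest level, 7 of the 10 genes had the 50 UMIs over both libraries that were asked of a comparison. Of these, 4 were past 2-fold lower in the induced library (Sfrp1, Sfrp2, Dkk2 and Rspo3) and 0 were past 2-fold higher. With each cell thinned to 2000 UMIs there were 5, 3 lower and 2 higher, since Sfrp1 dropped out (-0.52) and Wif1 (1.14) and Dkk3 (1.09) passed. With a coarser clustering Sostdc1 passed as higher (1.47), with equal weight per cell Sfrp1 dropped out (-0.73), and with fibroblasts from shared clusters Dkk2 did (-0.49). A ratio counted as past 2-fold when its interval also left out equal levels. Among all genes measured in the same way, 6.69% were past 2-fold lower in outer root sheath, 12.6% in dermal sheath, 5.56% in fibroblasts and 13.8% in dermal papilla cells. Counted over each class as a whole, fibroblasts had 8 measured genes, 2 lower and 2 higher (6.2% of all genes were past 2-fold higher), and dermal papilla cells had 6, 3 lower and 1 higher (8.59% higher). Dermal sheath had 3, 2 lower and 1 higher (11.8% higher), and outer root sheath had 5, 2 lower and 2 higher (7.46% higher).

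Over the whole compartment of highest level, 9 of the 10 genes had enough UMIs. Sfrp1 in epithelial cells and Sfrp2, Dkk2 and Rspo3 in non-epithelial cells were past 2-fold lower, and Wif1 in non-epithelial cells was past 2-fold higher. Fibroblasts made up 503 of 843 control and 280 of 784 induced non-epithelial cells, and the part of this in the lower Sfrp2, Dkk2 and Rspo3 was not tested. Among all genes, 9.16% were past 2-fold lower and 9.99% higher in epithelial cells, and 7% lower and 8.19% higher in non-epithelial cells. The median log2 ratio of the 9 genes measured over all non-epithelial cells was -0.60, and that of all genes was 0.03.

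**Figure D2:**
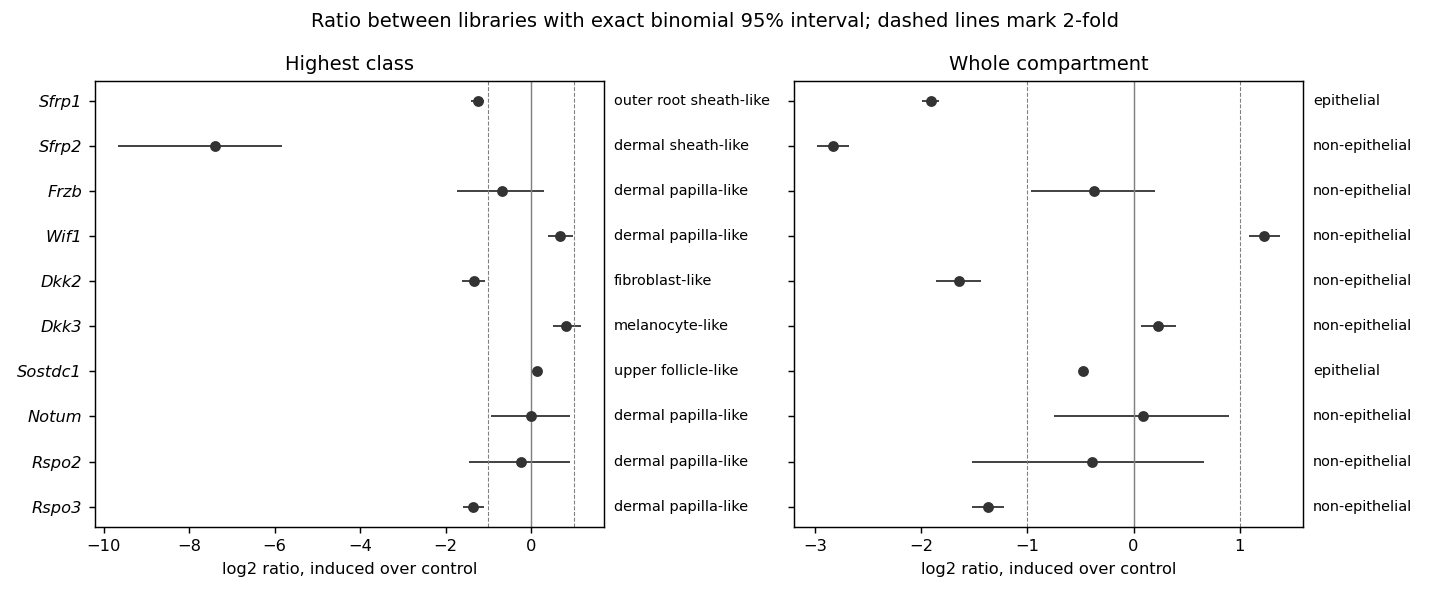
Log2 ratio of induced over control for each gene, in its class of highest level (left) and over its whole compartment (right), with exact binomial 95% intervals; dashed lines mark 2-fold and the x axes differ. Sfrp1, Sfrp2, Dkk2 and Rspo3 lie below the lower dashed line in both panels, and Wif1 lies above the upper one in the right panel.

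Sfrp1 (chr8:23411502-23449632, plus strand) encodes a Wnt-binding protein with a Frizzled-like domain. In outer root sheath it had 991 UMIs among control cells and 681 among induced cells, 192 CPM (180 to 205) and 80.7 CPM (74.8 to 87.0). The log2 ratio was -1.25 (-1.39 to -1.11). Cluster E4 held 353 of the 447 control cells of that class, and clusters E7 and E25 held 315 and 147 of the 480 induced cells. The log2 ratio came under 2-fold with each cell given equal weight (-0.73) and with each cell thinned to 2000 UMIs (-0.52). Re-clustering at 1.5 times the resolution gave -2.91, and the cause of these shifts was not tested.

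The highest Sfrp1 level in the epithelium was in cluster E8, which stayed unnamed and was led by Nppc, Scrg1 and Trps1. There it was 939 CPM in the control and 785 CPM in the induced library, giving a log2 ratio of -0.26 (-0.50 to -0.03). The cluster had 266 control and 31 induced cells. It supplied 46.8% of the epithelial Sfrp1 UMIs of the control library (2407 of 5139) and 9.25% of those of the induced library (160 of 1729). The level inside E8 was thus close in both libraries, while the number of its cells was not. Over all epithelial cells the level was 66.2 CPM in the control and 17.6 CPM in the induced library, giving a log2 ratio of -1.91 (-1.99 to -1.83), and without E8 it was -1.18 (-1.28 to -1.09). In the upper follicle class the level was 81.9 and 34.3 CPM, and cluster E24, with 95 and 56 cells, held 201 of the 202 control and 56 of the 68 induced UMIs, at 165 and 65.4 CPM. Schwann cells, with 30 and 16 cells too few to compare, had 776 and 357 CPM.

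Sfrp1 was low in fibroblasts, at 11.7 CPM in the control and 34.3 CPM in the induced library, giving a log2 ratio of 1.56. Most of the induced UMIs, 53 of 60, came from cluster N9, which had 3 control and 78 induced cells and was led by Lpl and Fabp4 beside collagen genes. The 10 adipocyte lineage markers summed to 255 CPM in control and 4271 CPM in induced fibroblasts. In the clusters N1, N2 and N3, the only fibroblast clusters with at least 20 cells in each library, these markers summed to 391 and 337 CPM, and Sfrp1 stood at 5.93 and 6.71 CPM.

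Sfrp2 (chr3:83766321-83774316, plus strand) is another Wnt-binding protein with a Frizzled-like domain, and over all non-epithelial cells its ratio was the furthest from equal of the 9 genes measured. In fibroblasts it had 3759 UMIs in 503 control cells and 380 UMIs in 280 induced cells, 768 CPM (744 to 793) and 217 CPM (196 to 240). The log2 ratio was -1.82 (-1.98 to -1.67). The lower level was present in each of the shared fibroblast clusters. It was 1583 and 448 CPM in N1, 685 and 130 CPM in N2, and 612 and 85.8 CPM in N3, with log2 ratios of -1.82, -2.40 and -2.83. Pooled over those clusters, of 302 and 189 cells, the ratio was -2.15 (-2.35 to -1.95). Fibroblast markers were lower there as well: the 12 of them summed to 71474 CPM in the control and 45809 CPM in the induced library, and their part in the Sfrp2 difference was not tested.

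At an equal depth of 1000 UMIs per cell, Sfrp2 was seen in 40.0% of control fibroblasts (35.7 to 44.4, Clopper-Pearson) and 12.9% of induced ones (9.17 to 17.4). Without thinning the shares were 77.5% and 38.9%. Endothelial cells, which should lack it and had medians of 13945 and 7570 UMIs against 9353 and 5902.5 in fibroblasts, had it in 0 of 61 cells in each library. The dermal papilla level was 291 CPM in the control and 62.8 CPM in the induced library (72 and 13 UMIs), and 59.7% of the control UMIs came from 1 cell.

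In dermal sheath cells, the contractile layer around the follicle, Sfrp2 had 487 UMIs (1913 CPM) in the control and 3 UMIs (11.4 CPM) in the induced library. This is a log2 ratio of -7.39 (-9.67 to -5.84), but the class was made of different cells: cluster N12 held 39 of the 40 control cells and cluster N16 held 24 of the 25 induced cells. N12 was led by Mef2c, Acta2 and Mylk, and N16 by Acta2, Tagln and Lrrc15. Of the 8 dermal sheath markers, 4 were raised in N12 and 7 in N16, so the name is less sure for the control cells. In the class Acta2 was at 1665 and 3245 CPM, Itga8 at 240 and 60.7 CPM and Col11a1 at 19.6 and 846 CPM. The library and the cluster cannot be told apart in that value. Over all non-epithelial cells Sfrp2 was at 482 and 67.9 CPM, giving a log2 ratio of -2.83 (-2.98 to -2.68). In the opposite direction, outer root sheath cells had 2 UMIs in the control and 87 in the induced library (0.388 and 10.3 CPM), and all epithelial cells had 1.20 and 2.90 CPM.

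Frzb (chr2:80411970-80447625, minus strand), a secreted relative of the Sfrp proteins, had its highest level in dermal papilla cells, although fibroblasts held more of its UMIs. Dermal papilla cells had 27 UMIs in the control and 14 in the induced library, 109 CPM (71.8 to 159) and 67.7 CPM (37.0 to 114). These intervals overlap, and the UMIs were too few for a 2-fold call. In fibroblasts it was at 9.81 and 9.73 CPM (48 and 17 UMIs).

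Wif1 (chr10:121033960-121100650, plus strand), which binds Wnt ligands through its own WIF domain, was higher in the induced library in the classes that express it most, except hair matrix. Dermal papilla cells had 171 and 229 UMIs of it, 690 CPM (590 to 801) in the control and 1107 CPM (968 to 1260) in the induced library. The log2 ratio of 0.68 (0.39 to 0.98) stayed under 2-fold, became 1.14 with each cell thinned to 2000 UMIs, and was 0.19 with equal weight per cell and 0.02 with thinning to 1000 UMIs. In fibroblasts it was 87.1 and 256 CPM, giving a log2 ratio of 1.55 (1.36 to 1.75).

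The higher Wif1 level held within each shared fibroblast cluster. It was 76.5 and 303 CPM in N1, 160 and 495 CPM in N2, and 62.9 and 165 CPM in N3, and the pooled log2 ratio was 1.47 (1.24 to 1.71). Sfrp2 and Wif1 thus differed in opposite directions in the same clusters. Dermal papilla markers there summed to 475 and 839 CPM in N1, 1064 and 982 CPM in N2 and 1303 and 1913 CPM in N3, and dermal sheath markers in N2 to 492 and 1002 CPM. Their part in the Wif1 difference was not tested. The share of fibroblasts with a Wif1 UMI at 1000 UMIs per cell was 8.15% in the control (5.91 to 10.9) and 17.9% in the induced library (13.6 to 22.9), against 42.7% and 45.0% unthinned, and it was 0 of 61 in endothelial cells of both libraries.

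**Figure D3:**
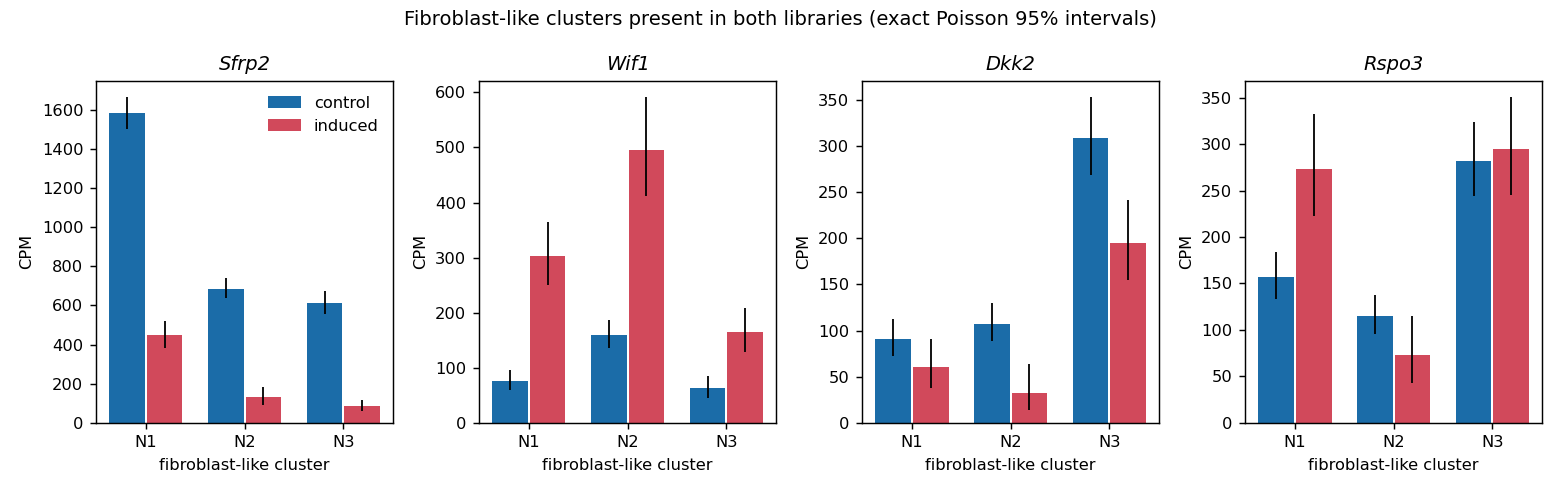
Level (CPM) of Sfrp2, Wif1, Dkk2 and Rspo3 in the fibroblast clusters N1, N2 and N3, with the control library in blue and the induced library in red; bars start at 0, lines are exact Poisson 95% intervals and the y axes differ. In each cluster Sfrp2 is lower and Wif1 higher in the induced library, whereas the Rspo3 intervals overlap in N2 and N3.

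Wif1 was also high in the induced dermal sheath cluster N16, at 1109 CPM with 290 UMIs in 24 cells. That cluster alone supplied 29.6% of the non-epithelial Wif1 UMIs of the induced library. Over all non-epithelial cells Wif1 was at 71.0 and 167 CPM, giving a log2 ratio of 1.23 (1.09 to 1.38). Hair matrix cells, the dividing cells that build the hair shaft (cluster E30, led by Krt35, with 64 and 50 cells), had 86.2 and 92.1 CPM, with overlapping intervals. In outer root sheath Wif1 was at 1.16 CPM in the control and 14.0 CPM in the induced library (6 and 118 UMIs), with 104 of the latter in cluster E7, and over all epithelial cells at 2.59 and 5.65 CPM.

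Dkk2 (chr3:132085292-132180304, plus strand), a ligand of Lrp5 and Lrp6, was mainly a fibroblast gene in the control library. It had 910 UMIs there and 129 in induced fibroblasts, 186 CPM (174 to 199) and 73.8 CPM (61.6 to 87.7), giving a log2 ratio of -1.33 (-1.61 to -1.07). This ratio depended on which clusters were present. Cluster N4, of 129 control and 2 induced cells, held 370 of the 910 control UMIs, and N9, of 3 control and 78 induced cells, held 2 of the 129 induced UMIs. In N1, N2 and N3 together Dkk2 was at 154 and 109 CPM, giving a log2 ratio of -0.49 (-0.81 to -0.19), which is not past 2-fold. Within them it was 90.9 and 60.1 CPM in N1, 108 and 32.5 CPM in N2, and 309 and 195 CPM in N3. Over all non-epithelial cells the log2 ratio was -1.65, and with equal weight per cell it was -0.997, just under 2-fold.

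In dermal papilla cells Dkk2 went the other way. It had 7 UMIs in the control and 46 in the induced library, 28.2 CPM (11.4 to 58.2) and 222 CPM (163 to 297), giving a log2 ratio of 2.98 (1.82 to 4.37). The UMIs lay in 3 of 40 control cells and 22 of 83 induced cells, although the induced cells were shallower. Melanocytes, with medians of 10158 and 7522.5 UMIs, had a Dkk2 UMI in 0 of 80 control and 0 of 238 induced cells, which allows shares of up to 3.75% and 1.26%. Endothelial cells had one in 7 of 61 and 3 of 61. At 1000 UMIs per cell the shares in dermal papilla cells were 2.50% (0.0633 to 13.2) and 19.3% (11.4 to 29.4). Among the 11 compared classes the order therefore changed: Dkk2 was highest in fibroblasts in the control library and in dermal papilla cells in the induced library. In each library the interval of the first class did not overlap that of the second. The unnamed cluster N14, of 23 control and 5 induced cells, was outside this order. It had 81 Dkk2 UMIs among 270609 UMIs in the control, a higher level than in fibroblasts, and 14 among 31334 in the induced library.

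Dkk3 (chr7:112116017-112159057, minus strand), a divergent member of the Dickkopf family, was at like levels in several unrelated classes. In melanocytes it was 102 CPM (83.6 to 124) in 80 control cells and 182 CPM (163 to 202) in 238 induced cells, giving a log2 ratio of 0.83 (0.51 to 1.16). The ratio was 1.09 with each cell thinned to 2000 UMIs and 1.46 with thinning to 1000. The 9 melanocyte markers summed to 13568 and 25725 CPM and keratins to 524 and 1109 CPM in these cells, and their part in the Dkk3 difference was not tested. Cluster N0 held 170 of the induced melanocytes and 37 of the control ones, and within it Dkk3 was at 96.3 and 177 CPM, while in cluster N8, with 42 and 43 cells, it was at 109.5 and 225 CPM. Over all non-epithelial cells the level was 78.7 and 92.5 CPM, giving a log2 ratio of 0.23 (0.07 to 0.40). In fibroblasts it was 112 and 91.0 CPM, in outer root sheath 55.6 and 72.4 CPM, and over all epithelial cells 15.3 and 18.2 CPM. In the E8 epithelial cluster Dkk3 was higher in the induced library, at 103 and 255 CPM, while Sfrp1 was close in both. Endothelial cells had 0 Dkk3 UMIs in 61 cells of either library.

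Sostdc1 (chr12:36314139-36318452, plus strand), an inhibitor of both Wnt and BMP signals that binds Lrp co-receptors, was the most abundant of the 10 genes in UMIs. Epithelial cells had 43077 of them in the control and 39266 in the induced library, 555 and 399.6 CPM, giving a log2 ratio of -0.47 (-0.49 to -0.45). Its distribution differed more than its total. In upper follicle cells it was 1143 CPM (1101 to 1186) and 1259 CPM (1210 to 1310), giving a log2 ratio of 0.14. The clusters of that class differed: E29, marked by Krt79 and Gata6, had 1646 and 2085 CPM, and E24 had 630 and 174 CPM. Re-clustering moved the class ratio between -0.63 and 1.47, so no direction can be given for it.

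In outer root sheath Sostdc1 was 894 CPM (868 to 920) in the control and 145 CPM (137 to 153) in the induced library, giving a log2 ratio of -2.62 (-2.72 to -2.53). In the companion layer, the cells between outer and inner root sheath (cluster E18, 85 and 141 cells), it was 545 and 332 CPM. In basal epidermis it was 62.0 CPM in the control and 299.8 CPM in the induced library, giving a log2 ratio of 2.27 (2.15 to 2.40). Basal cells were held by cluster E0 in the control library (471 of 472) and by E1, E9, E11, E19 and E20 in the induced library, and the lowest of those, E11, had 213 CPM. In these cells upper follicle markers summed to 1036 and 2436 CPM, companion layer markers to 94.6 and 654 CPM and basal markers to 50258 and 28504 CPM, and the part of these shifts in the Sostdc1 difference was not tested. Spinous cells, the layer above, had 222 and 288 CPM, with cluster E15 and E27 holding 252 and 131 of the 384 control cells and E5 holding 331 of the 339 induced cells. In the control library the outer root sheath thus had a higher Sostdc1 level than basal or spinous epidermis, while in the induced library basal and spinous epidermis, with overlapping intervals, ranked above the outer root sheath.

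Much of the Sostdc1 lay in unnamed epithelial clusters that were also split by library. E17, of 243 control and 1 induced cells, had 1334 CPM and supplied 13.4% of the epithelial Sostdc1 UMIs of the control library, and the unnamed E16 and E2 supplied 12.6% and 12.3%. E17 was led by Hspa1a, Ccn1 and Klf2, genes of the stress and immediate early response. Cluster E23, of 171 control cells and led by Ccl27a, Il1r2 and Slco2a1, had 1369 CPM. Cluster E6, of 2 control and 316 induced cells and led by Ccl27a, Slco2a1 and Pou3f1, had 1265 CPM in the induced library and supplied 19.1% of the epithelial Sostdc1 UMIs there. Dermal papilla cells had 166 UMIs in the control and 13 in the induced library, 669.8 and 62.8 CPM, giving a log2 ratio of -3.41. Only 8 of the 40 control cells carried those UMIs, 39.2% of them came from 1 cell, and at 1000 UMIs per cell 12.5% of control cells (4.19 to 26.8) and 6.02% of induced cells (1.98 to 13.5) had one, so the intervals overlapped. In endothelial cells 4 of 61 had a Sostdc1 UMI in each library (6.56%) before thinning. Schwann cells, with 30 and 16 cells too few to compare, held 345 and 106 Sostdc1 UMIs. That was 43.5% of the non-epithelial Sostdc1 UMIs of the control library and 34.4% of those of the induced library, against 20.9% and 4.22% in dermal papilla cells.

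Notum (chr11:120653788-120661175, minus strand), the Wnt deacylase, was highest in 2 small classes. In dermal papilla cells it had 24 and 20 UMIs, 96.8 CPM (62.0 to 144) in the control and 96.7 CPM (59.1 to 149) in the induced library. In hair matrix cells it had 93 and 75 UMIs, 51.1 CPM (41.2 to 62.6) and 74.3 CPM (58.4 to 93.1), giving a log2 ratio of 0.54 (0.08 to 0.99). In the same cells hair shaft markers summed to 1285 and 10347 CPM and hair matrix markers to 1806 and 2146 CPM, and the part of that shift in the Notum and Wif1 values was not tested. The hair matrix cluster E30 supplied 88.6% of the epithelial Notum UMIs of the control library and 83.3% of those of the induced library. Basal epidermal cells had a Notum UMI in 0 of 472 control and 2 of 1397 induced cells. The intervals of both classes overlapped within each library, so no order between them can be given.

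Rspo2 (chr15:43020794-43170826, minus strand), an agonist that strengthens Wnt signals through Lgr receptors, was low, and dermal papilla cells held 17 of its 24 non-epithelial UMIs in the control and all 12 in the induced library. Its levels there were 68.6 CPM (40.0 to 110) in the control and 58.0 CPM (30.0 to 101) in the induced library. A difference was not detectable at this depth, and the interval of the log2 ratio ran from -1.44 to 0.91. Fibroblasts had it in 5 of 503 control cells and 0 of 280 induced cells, the latter allowing, by the limit of 3 counts, a share of up to 1.07% of cells with a UMI.

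Rspo3 (chr10:29452416-29535867, minus strand), the other R-spondin, had the highest level in any class of the 10 genes in the control library, while in the induced library Sostdc1 in upper follicle cells and Wif1 in dermal papilla and dermal sheath cells were higher. In dermal papilla cells it had 568 UMIs in 40 control cells and 186 UMIs in 83 induced cells, 2292 CPM (2107 to 2488) and 899 CPM (774 to 1038). The log2 ratio was -1.35 (-1.60 to -1.11), and over the 10 other processing choices tried it lay between -1.74 and -1.16. At 1000 UMIs per cell the share with a UMI was 77.5% in the control (61.5 to 89.2) and 41.0% in the induced library (30.3 to 52.3), against 92.5% and 59.0% unthinned. Endothelial cells had it in 2 of 61 cells in each library. Across all genes of dermal papilla cells the median log2 ratio was -0.19. Measured against that median, Rspo3 was at -1.16 and Wif1 at 0.87. The summed markers of the class were close in both libraries, as given above, but single markers differed both ways: Alx4 was at 295 and 131 CPM and Sox18 at 537 and 251 CPM, against 274 and 624 CPM for Hhip and 718 and 1295 CPM for Enpp2. Fibroblast markers in the class summed to 4826 and 2857 CPM, and the part of these shifts in the Rspo3 and Sfrp2 values was not tested.

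**Figure D4:**
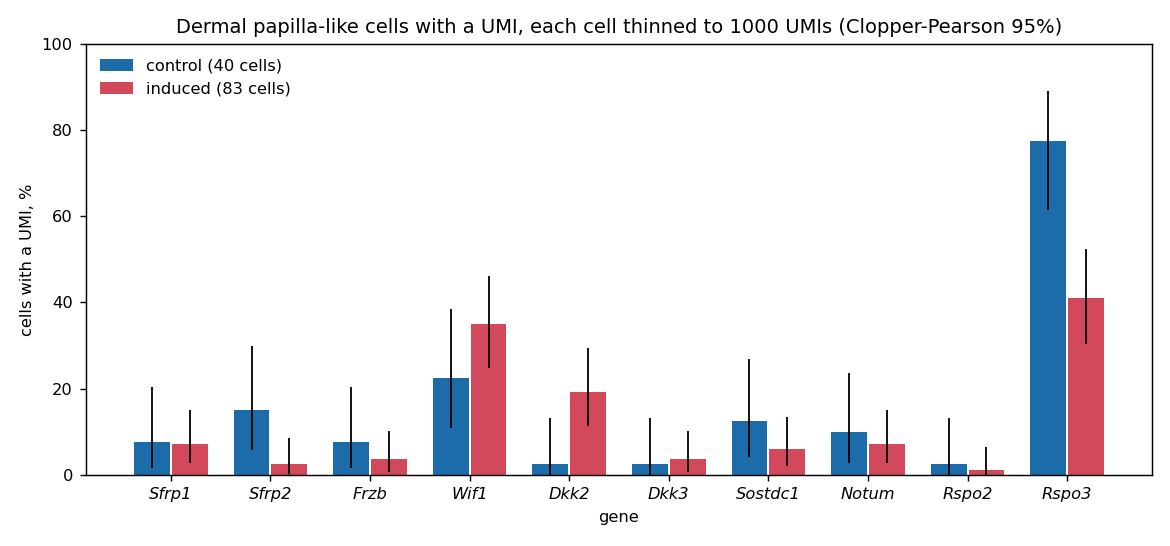
Percent of dermal papilla cells with a UMI of each gene after every cell was thinned to 1000 UMIs, for 40 control cells (blue) and 83 induced cells (red); bars start at 0 and lines are Clopper-Pearson 95% intervals. Rspo3 is at 77.5% and 41.0% with intervals that do not overlap, and Dkk2 at 2.50% and 19.3% with intervals that do.

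Fibroblasts held less Rspo3 per UMI, 242 CPM (228 to 256) in the control and 153 CPM (135 to 172) in the induced library, giving a log2 ratio of -0.66. The pooled direction turned in the shared clusters. In N1, N2 and N3 together the level was 173 CPM in the control and 235 CPM in the induced library, giving a log2 ratio of 0.44 (0.21 to 0.66). It was 157 and 273 CPM in N1, 115 and 73.0 CPM in N2, and 282 and 294 CPM in N3, so it was not the same in each cluster. N3, the richest of them in Rspo3, had 79 of the 302 control and 79 of the 189 induced cells. Cluster N4, which was nearly absent from the induced library, had 355 CPM in the control. Dermal sheath cells had 58 Rspo3 UMIs in the control and 0 in the induced library, at least 20-fold lower when 3 UMIs per library set the floor, again between clusters N12 and N16. Over all non-epithelial cells Rspo3 was at 204 and 78.8 CPM, giving a log2 ratio of -1.37 (-1.52 to -1.22), and with equal weight per cell it was -0.79.

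Summed over the 10 genes, the level in dermal papilla cells was 4350 CPM in the control and 2770 CPM in the induced library. Fibroblasts had 1458 and 892 CPM, outer root sheath 1144 and 324 CPM, and basal epidermis 74.3 and 321 CPM. Several of the genes were often detected in the same cell: at 1000 UMIs per cell, 47.5% of control and 33.7% of induced dermal papilla cells had UMIs of at least 2 of the 10 genes, compared with 23.5% and 12.9% of fibroblasts and 0% and 0.859% of basal cells.

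The rest of the pathway was read from 8 lists with 73 genes, none of them among the 10. In fibroblasts, 42 of the 73 had at least 50 UMIs; 0 were past 2-fold lower and 4 were past 2-fold higher, which is 9.52% against 11.8% of all genes past 2-fold in either direction. The ligands Wnt4 (10.8 and 21.7 CPM) and Wnt6 (24.1 and 50.9 CPM) and the receptors Fzd4 (3.07 and 28.0 CPM) and Fzd7 (4.91 and 20.03 CPM) were the 4. The Dkk receptor gene Lrp6 was at 55.4 and 109 CPM there, and Rspo1, another R-spondin, at 183 and 104 CPM, neither past 2-fold. In the response list, 10 of 12 genes were measured and 0 passed, with Axin2, a feedback target of the pathway, at 64.2 and 50.4 CPM and Lef1, its transcription factor, at 20.2 and 34.9 CPM.

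These counts depended on the clusters as well. Adipocyte lineage markers differed over all fibroblasts (255 and 4271 CPM) but were close in the shared clusters (391 and 337 CPM). In N1, N2 and N3 together 37 of the 73 were measured, with 1 past 2-fold lower and 9 higher, 27.0% against 8.52% of all genes. In these clusters dermal papilla markers summed to 915 and 1316 CPM, dermal sheath markers to 360.1 and 483 CPM and fibroblast markers to 71474 and 45809 CPM, and their part in the pathway counts was not tested. Wnt6 (22.6 and 51.7 CPM) stayed past 2-fold, Wnt4 (17.0 and 25.9 CPM) did not, and Fzd4 (13 and 3 UMIs) and Fzd7 (14 and 20 UMIs) had too few UMIs. The other ligands past 2-fold higher were Wnt5a (44.1 and 98.7 CPM), Wnt11 (14.8 and 31.6 CPM) and Wnt16 (26.7 and 106 CPM). Higher too were the membrane inhibitor Apcdd1 (288 and 854 CPM) and, among genes that respond to Wnt signals, Lef1 (20.7 and 50.8 CPM), Nkd1 (97.1 and 204 CPM), Nkd2 (61.9 and 168 CPM) and Cd44 (72.6 and 147 CPM). Axin2 was at 50.02 and 74.7 CPM, under 2-fold and in the other direction from the whole class, as was Rspo1 at 107 and 145 CPM. Lgr5, an R-spondin receptor, was past 2-fold lower, at 37.1 and 6.71 CPM. Over the whole fibroblast class Lgr5 was at 20.6 and 27.5 CPM, with a log2 ratio of 0.41 (-0.12 to 0.92).

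Dermal papilla cells had 17 of the 73 measured, with 2 past 2-fold lower and 2 higher, 23.5% against 22.4% of all genes. The ligand Wnt5a was at 573 CPM in the control and 193 CPM in the induced library, and Igfbp4, a secreted protein reported to restrain Wnt signals, at 1606 and 537 CPM. Higher in the induced library were the membrane inhibitor Apcdd1, at 767 and 1682 CPM, and the response gene Bambi, at 56.5 and 242 CPM. Rspo1 differed little in the same cells, with 892 and 957 CPM and a log2 ratio of 0.10 (-0.18 to 0.39), beside the lower Rspo3.

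In epithelial cells 56 of the 73 were measured, with 10 past 2-fold lower and 5 higher, 26.8% against 19.2% of all genes. Sebocyte markers summed to 3850 and 719 CPM over these cells, and the part of the changed make-up in the pathway ratios was not tested. The ligands Wnt5b (9.44 and 4.46 CPM) and Wnt7a (3.58 and 0.224 CPM) were lower and Wnt7b (30.8 and 70.0 CPM) higher, as was Porcn, which adds the lipid to Wnt proteins (5.01 and 20.09 CPM). The receptors Fzd2 (56.8 and 26.0 CPM), Fzd4 (1.996 and 0.285 CPM), Fzd7 (47.2 and 17.4 CPM) and Ror1 (4.27 and 0.254 CPM) were lower. Igfbp4 (188 and 47.0 CPM) and the glypicans Gpc2 (3.66 and 1.34 CPM) and Gpc6 (3.71 and 1.60 CPM) were lower too. Dkkl1, a relative of the Dickkopf genes, was at 14.8 and 39.6 CPM, and the response gene Ccn4 at 0.103 and 0.682 CPM. Of the 5 R-spondin receptor and ligase genes, 0 were past 2-fold: Lgr4 was at 80.1 and 72.7 CPM, Lgr5 at 30.6 and 19.5 CPM, Lgr6 at 57.6 and 35.1 CPM and Znrf3 at 27.6 and 34.9 CPM. Axin2 (20.3 and 18.1 CPM) and Lef1 (12.5 and 11.7 CPM) were also under 2-fold, whereas the feedback inhibitors Nkd1 (5.03 and 2.16 CPM) and Nkd2 (0.914 and 2.40 CPM) passed in opposite directions.

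For each gene, the genes with the most similar levels were sought over 22 points, the 11 classes in both libraries, as log2(CPM + 5). These correlations describe shared patterns only, since all points of a library share its depth and RNA background, and low genes rest on 1 class. The gene most like Sfrp2 was Col26a1 (r = 0.96), that most like Wif1 was Cacna1g (r = 0.95, with Wnt5a next at 0.93), and that most like Dkk2 was Mxra8 (r = 0.96). Rspo3 was nearest to Zic1 (r = 0.97), Rspo2 to Adgrb3 (r = 0.97), Frzb to Smoc1 (r = 0.98) and Notum to Tagln3 (r = 0.98). Among the genes highest in epithelium or melanocytes the nearest were less alike, with Ephb6 for Sostdc1 (r = 0.90), Cspg4 for Dkk3 (r = 0.91) and Steap4 for Sfrp1 (r = 0.81).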

How the data were processed

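The authors deposited raw UMI counts per gene and barcode for 2 libraries, made with Cell Ranger 6.0.0 on mm10 per the submitters' processing notes; no deposited barcode had under 500 UMIs. Barcodes with at least 1000 UMIs, at least 500 genes and under 15% mitochondrial UMIs were kept (5178 control, 5258 induced), and the 7% with the highest Scrublet score per library were removed, since the automatic threshold marked 7 and 6 cells. Cells were clustered with scanpy 1.11.5 and leidenalg 0.10.2 (2000 variable genes, 30 components, resolution 1.0), epithelial clusters (keratins over 3000 CPM) again at 2.0 after centring per library and the others at 1.0. The 10 genes, pathway, cell cycle, sex-linked, mitochondrial, ribosomal and haemoglobin genes stayed out of clustering.

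A cluster took its name from 28 marker lists when at least 3 markers were in 25% of its cells and raised 1.5-fold, with at least 2 among its 10 leading genes or 60% of the list raised; these thresholds were set after seeing the data, and clusters with a stronger rival list stayed unnamed (13 epithelial, 2 other). Classes needed 20 cells in each library. CPM carry exact Poisson intervals and ratios exact conditional binomial intervals. The ratio and its call were tested on simulated Poisson counts, the error that these intervals assume, so that test does not cover differences between cells or animals. Past 2-fold means a log2 ratio of 1 or more in size, an interval without 0 and at least 50 UMIs. Thinning to 2000 UMIs left out 54 control and 352 induced cells, including 46 of the 83 induced dermal papilla cells, so shares are printed at 1000 UMIs, chosen after seeing this. All 10 genes were named, with the nearest genes among those reaching 50 CPM; of the pathway lists, genes past 2-fold and Axin2, Lef1 and Lgr5 were named, and others named beside them were chosen after their values were seen. The members and lists were chosen with earlier results of these data known. Protein similarity of the 10 genes was not analysed here.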

Additional observations from a re-analysis of the deposited data

Results flagged for a closer look

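Dkk2 differed in opposite directions in dermal classes, with a log2 ratio of -1.33 in fibroblasts and 2.98 in dermal papilla cells; the difference was not tested. The fibroblast value was -0.49 in the clusters present in both libraries. Sostdc1 was lower in induced dermal papilla cells (-3.41, with 39.2% of the control UMIs in 1 cell) and higher in induced basal epidermis (2.27), also untested. Sfrp1 was at -1.25 in upper follicle cells and 1.56 in fibroblasts, and Sfrp2 at -7.39 in dermal sheath and 4.73 in outer root sheath, where the control library had 2 UMIs. Neither contrast was tested, and in dermal sheath and outer root sheath different clusters stood for the class in each library.

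In barcodes that failed the cell filter, which no comparison used, Dkk3 was at 28.3 CPM in the induced library and 19.97 CPM in the control library, with an interval of the log2 ratio from 0.13 to 0.88. In the same barcodes the log2 ratio was -2.72 for Sfrp2, -1.69 for Rspo3, -1.65 for Dkk2 and -0.99 for Sfrp1, all lower in the induced library. For Wif1 it was 0.35, and its interval, from -0.05 to 0.76, included equal levels.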

How the results depend on the processing

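The number of genes past 2-fold over their compartment was 5, and it was 3 with each cell given equal weight and 3 with each cell thinned to 1000 UMIs; under equal weight Dkk2 and Rspo3 (-0.997 and -0.79) and under thinning Dkk2 and Rspo3 (-0.97 and -0.95) came under 2-fold; the cause was not tested. Pathway genes past 2-fold in fibroblasts numbered 4 of 42 measured, and 7 of 64 without a UMI minimum and 1 of 25 with a minimum of 200. In the fibroblast clusters present in both libraries they numbered 10 of 37. In dermal papilla cells the numbers were 4 of 17, 10 of 54 and 2 of 4, as the minimum sets how many genes are measured. The share of all genes is given above for the minimum of 50 UMIs only. No called ratio of the 10 genes in their class or compartment of highest level changed sign under the alternatives run. Among pathway genes called in fibroblasts or their shared clusters, Fzd4 went from 3.19 to -0.74 in the shared clusters, where it had too few UMIs. Lgr5 went from 0.41 to -2.47 and Wnt11 from -0.13 to 1.09. Of the ratios of single genes under all alternatives, 122 stayed within the interval of the value given and 40 moved outside it. Restricting fibroblasts to clusters present in both libraries and leaving out cluster E8 were added after seeing the data, as was thinning to 1000 UMIs.

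No paired analysis was possible because each group had 1 library. Class names are a reconstruction, and 46 of 83 induced dermal papilla cells had under 2000 UMIs. Frzb, Notum and Rspo2 had under 50 UMIs in dermal papilla cells, so a difference of any size could not be called there. The intervals of their log2 ratios ran from -1.73 to 0.29 for Frzb, -0.94 to 0.92 for Notum and -1.44 to 0.91 for Rspo2.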
